A study of Rattus norvegicus with 8 samples.

Results

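A set of 9 genes of vitamin A handling in the liver was examined in adult male Sprague-Dawley rats that had been exposed through their dams to agonists of the aryl hydrocarbon receptor (AhR), and in controls. The 9 genes were Rbp4, Lrat, Rdh10, Aldh1a1, Aldh1a7, Cyp26a1, Cyp26b1, Rara and Rarb, chosen by name for their place in retinoid metabolism. A gene was represented by the probe whose RefSeq accession matched its symbol in the gene table of assembly GRCr8, and where it had several, by the probe of highest mean Cy5 signal. By this rule 7 of the 9 were measured, of 10003 named genes measured in all, and Aldh1a7 and Rarb had no matched probe and are not analysed here. The AhR group came from dams given a mixture of non-ortho polychlorinated biphenyls, dibenzodioxins and dibenzofurans in corn oil, at a total of 1.8 ng of dioxin toxic equivalents per kg per day, from gestation day 0 to postnatal day 20. The Control group came from dams given corn oil alone, and neither group was cross-fostered. Livers were taken at 78 to 86 days of age, long after dosing had ended. Each group had 4 Agilent arrays (n = 4), each holding liver RNA pooled from 2 rats in the Cy5 channel and a universal rat reference RNA in the Cy3 channel. The labels do not say whether rats of different pools shared a litter, so p-values measure the spread between pools.

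The liver is the main store of vitamin A in the body. Retinol travels in blood on the carrier RBP4, is esterified by LRAT and is kept as retinyl ester droplets in hepatic stellate cells. Released retinol is oxidised to retinal by enzymes such as RDH10 and then to retinoic acid by retinal dehydrogenases such as ALDH1A1. Retinoic acid binds the nuclear receptors RARA and RARB and is cleared by the CYP26 hydroxylases, and Cyp26a1 and Rarb are themselves classical retinoic acid-induced genes. Dioxins are known to deplete hepatic vitamin A in rats. The comparison asks whether genes of storage, synthesis and breakdown differed in adults exposed only early in life.

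The promoters of 4 of the genes are shown because these genes formed the 2 pairs of highest Pearson's r over the arrays, as described with its limits further on. RefSeq promoter windows of assembly GRCr8, from 250 bases before to 50 after the start, were given for 7 of the 9 genes, all but Rdh10 and Aldh1a7. They are written 5′ to 3′ on the gene's strand. Capitals mark matches, on either strand, to 3 kinds of motif. These are a direct repeat of retinoid receptor hexamers with 1, 2 or 5 bases between them (DR1, DR2, DR5), the AhR core GCGTG, and TATAAA. Each hexamer could be the consensus AGGTCA or a variant that differs from it inside the site, AGTTCA, at the start of the site, GGGTCA, or at both places, GGTTCA. The windows lay at chr1:227537370-227537669 on the plus strand for Aldh1a1, chr4:118616127-118616426 on the minus strand for Cyp26b1, chr1:245313502-245313801 on the minus strand for Rbp4 and chr1:244883572-244883871 on the plus strand for Cyp26a1.
Aldh1a1: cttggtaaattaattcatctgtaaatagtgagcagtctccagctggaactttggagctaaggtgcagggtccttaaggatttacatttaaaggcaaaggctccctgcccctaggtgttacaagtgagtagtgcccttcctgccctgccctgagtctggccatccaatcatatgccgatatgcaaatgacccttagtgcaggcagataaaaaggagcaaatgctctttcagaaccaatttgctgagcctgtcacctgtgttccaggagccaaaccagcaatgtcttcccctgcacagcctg
Cyp26b1: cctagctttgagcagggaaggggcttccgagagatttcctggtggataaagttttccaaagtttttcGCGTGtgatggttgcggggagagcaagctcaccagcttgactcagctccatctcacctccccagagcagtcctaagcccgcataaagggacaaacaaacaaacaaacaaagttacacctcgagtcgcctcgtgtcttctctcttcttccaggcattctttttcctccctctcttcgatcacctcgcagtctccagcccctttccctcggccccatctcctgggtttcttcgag
Rbp4: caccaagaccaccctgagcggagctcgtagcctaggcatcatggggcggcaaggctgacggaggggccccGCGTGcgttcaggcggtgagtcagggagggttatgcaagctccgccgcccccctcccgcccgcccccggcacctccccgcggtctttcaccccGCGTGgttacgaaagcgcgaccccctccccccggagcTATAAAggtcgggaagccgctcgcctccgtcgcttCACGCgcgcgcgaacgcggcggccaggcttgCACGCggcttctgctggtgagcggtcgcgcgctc
Cyp26a1: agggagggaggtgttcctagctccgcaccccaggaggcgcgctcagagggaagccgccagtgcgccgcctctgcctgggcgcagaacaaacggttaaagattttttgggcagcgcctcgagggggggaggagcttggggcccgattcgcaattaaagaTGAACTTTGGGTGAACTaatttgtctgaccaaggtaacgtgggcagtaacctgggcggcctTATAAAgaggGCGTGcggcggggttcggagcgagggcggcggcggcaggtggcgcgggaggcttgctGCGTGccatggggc

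The Cyp26a1 window held a DR5, the spacing of the classical retinoic acid response element, beginning at base -92 relative to the start. It was read on the minus strand and covered the letters TGAACTTTGGGTGAACT. The Rarb window held the other DR5 among the 7, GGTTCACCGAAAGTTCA, beginning at base 25 after the start on the plus strand at chr15:11336142-11336441. A DR5 of these hexamers was found in 0.382% of 33469 promoter windows, a DR1 in 0.233% and a DR2 in 0.17%. No DR1, DR2 or DR5 was found in the windows of Aldh1a1, Cyp26b1, Rbp4, Lrat or Rara. GCGTG was found in the windows of Cyp26a1, Cyp26b1, Rbp4 and Lrat, and in 29.7% of all windows. TATAAA was found in those of Cyp26a1 and Rbp4, and in 14.2% of all windows. A match of letters does not show that a factor binds there.

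The 8 arrays lay on 1 slide in 2 rows of 4, and each row held 2 arrays of each group. Cy5 was well above background for 57.5% to 62% of probes on AhR arrays and for 56.2% to 59.7% on Control arrays. All 15 hepatocyte markers listed, Alb and Apoa1 among them, were measured. Over 17857 probes kept, limma called 0 between AhR and Control at an adjusted p of 0.05 (0%), and 288 had an unadjusted p under 0.05 (1.61%). For 213 probes (1.19%) every AhR array lay on one side of all Control arrays. Without any group difference, exchangeable arrays would give shares of 0.05 and 0.0286. Both shares were below these, and the reason was not tested. Of the 10003 named genes, 4947 averaged higher in AhR than in Control and 5056 averaged lower. On the log2 scale their median difference was 0 and their median SE 0.12. Values below are log2 ratios of Cy5 over Cy3 unless stated otherwise. They compare a gene between arrays and not one gene with another, and dyes were not swapped. In bulk tissue, fewer cells of a type and less RNA per cell cannot be told apart.

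None of the 7 measured retinoid genes passed the test between AhR and Control, and the groups overlapped for all 7, against non-overlap in 1.19% of all probes. Storage and transport, oxidation, and breakdown genes each comprised 1 gene with a higher and 1 with a lower mean in AhR. Differences ran from -0.19 for Rbp4 to 0.15 for Lrat, or 0.88-fold to 1.11-fold. Some of these genes varied widely between arrays of the same group, up to 7.74-fold between the highest and lowest array for Aldh1a1. Such spread was not particular to them. By SD within groups 9 of the 10003 named genes exceeded Aldh1a1, with Dbp first at 1.32, and other retinoid genes reached 0.92.

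**Figure D1:**
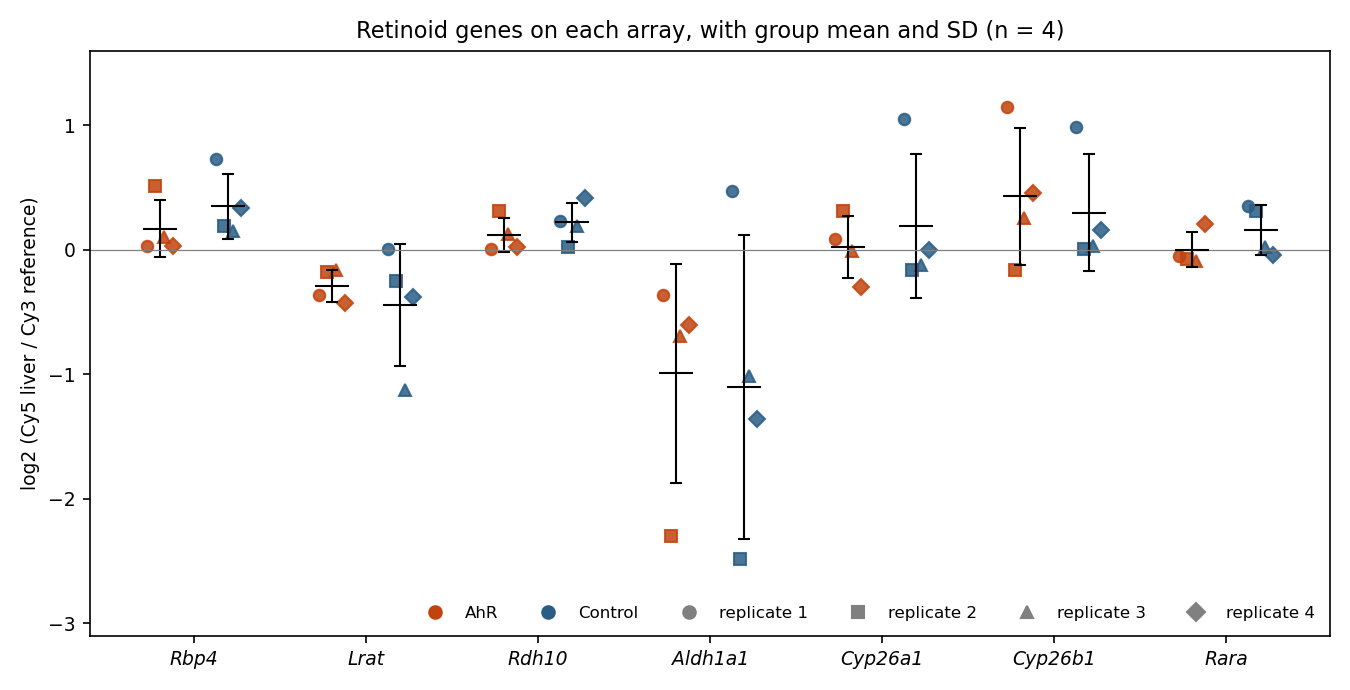
Log2 ratio of liver Cy5 over reference Cy3 (vertical axis) for each of the 7 measured retinoid genes (horizontal axis) on every array, with AhR left of Control, marker shapes for replicate numbers, and bars for the mean and SD of 4 arrays. The groups overlap for each gene, and Aldh1a1 spans -2.48 to 0.47, with both arrays numbered 2 at the bottom.

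Rbp4 encodes the plasma retinol carrier that hepatocytes secrete. Its log2 ratio was 0.03, 0.51, 0.10 and 0.03 on AhR replicates 1 to 4, against 0.73, 0.19, 0.15 and 0.34 on Control replicates 1 to 4. AhR replicate 2 stood above the other AhR arrays, and Control replicate 1 was the highest of all 8. The mean was 0.17 ± 0.23 in AhR and 0.35 ± 0.26 in Control (SD, n = 4 each), a difference of -0.19 (SE 0.15, 95% interval -0.52 to 0.15, limma adjusted p = 1.00, exact permutation p = 0.343). The difference was within the spread between arrays. Raw Cy5 signals of Rbp4 lay between 211540 and 350476, with no saturated spot.

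Lrat encodes the acyltransferase that makes retinyl esters for storage. Its log2 ratio was -0.36, -0.18, -0.16 and -0.43 on AhR replicates 1 to 4, against 0.01, -0.25, -1.13 and -0.38 on Control replicates 1 to 4. The AhR arrays lay close together, and Control replicate 3 was below the other 7 arrays. The mean was -0.29 ± 0.13 in AhR and -0.44 ± 0.49 in Control (SD, n = 4 each), a difference of 0.15 (SE 0.21, 95% interval -0.30 to 0.60, limma adjusted p = 1.00, exact permutation p = 0.686). Without Control replicate 3 the difference was -0.08 (SE 0.13), so that 1 array set its direction. Both spots of the probe were low on that array, at -1.23 and -1.03. A dimmer Lrat probe, with raw Cy5 signals of 98 to 132 on arrays whose median Cy5 background was 71 to 76, read -0.25 on that array. It read -0.19, -0.25, 0.06 and -0.13 on AhR replicates 1 to 4, against -0.23, -0.31, -0.25 and -0.22 on Control replicates 1 to 4.

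LRAT marks stellate cells, so the other stellate cell markers are given beside it. Of 18 listed, 14 were measured, while Lum and Ngfr were not well above background on any array and Gfap was on 1. The mean log2 ratio of the 14 ran from -0.41 to -0.29 on AhR arrays and from -0.72 to -0.29 on Control arrays. It was -0.29 on Control replicate 3, the highest of the Control arrays, where Lrat was lowest. Between the groups 13 of the 14 averaged higher in AhR than in Control, by a median of 0.11, with none called, and 1 of the 14 had an unadjusted limma p under 0.05. Among all named genes 49.5% averaged higher. Markers of other cell types also averaged higher, for endothelial cells in 6 of 6 (median 0.14), Kupffer cells in 10 of 11 (median 0.15) and cholangiocytes in 5 of 6 (median 0.11). Hepatocyte markers averaged higher in 8 of 15 (median 0.01) and red cell markers in 0 of 4 (median -0.45). None of these markers was called, and the part of cell makeup in the values of the retinoid genes was not tested.

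Rdh10 encodes the dehydrogenase that turns retinol into retinal. Its log2 ratio was 0.01, 0.31, 0.13 and 0.02 on AhR replicates 1 to 4, against 0.23, 0.02, 0.19 and 0.42 on Control replicates 1 to 4. The values of both groups were interleaved and spanned 1.33-fold. The difference was -0.10 (SE 0.11, 95% interval -0.34 to 0.15, limma adjusted p = 1.00, exact permutation p = 0.457), from means of 0.12 ± 0.14 in AhR and 0.22 ± 0.16 in Control (SD, n = 4 each). Duplicate spots of the Rdh10 probe had an SD of 0.14 within an array, and its SD between arrays of a group was 0.15. The first is for single spots and the second for means of 2 spots, so they are not directly comparable.

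Aldh1a1 encodes the cytosolic retinal dehydrogenase that makes retinoic acid in liver. Its log2 ratio was -0.36, -2.30, -0.69 and -0.60 on AhR replicates 1 to 4, against 0.47, -2.48, -1.01 and -1.36 on Control replicates 1 to 4. The arrays numbered 2 were the lowest of each group and the arrays numbered 1 the highest. The mean was -0.99 ± 0.88 in AhR and -1.10 ± 1.22 in Control (SD, n = 4 each), a difference of 0.11 (SE 0.57, 95% interval -1.15 to 1.37, limma adjusted p = 1.00, exact permutation p = 0.914). In folds this interval runs from 0.45 to 2.59. The direction turned when AhR replicate 1, AhR replicate 4 or Control replicate 2 was left out, with differences of -0.10, -0.02 and -0.35, and it was 0.63 without Control replicate 1.

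The liver channel of Aldh1a1 varied far more than its reference channel. Its raw Cy5 signal ran from 899 on Control replicate 2 to 7321 on Control replicate 1, an 8.14-fold span, while its Cy3 signal spanned 1.32-fold, from 3323 to 4401. Duplicate spots had an SD of 0.04 within an array, against an SD of 1.06 between arrays of a group. Aldh1a1 ranked 10 among 10003 named genes by this SD, whose median was 0.17.

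Cyp26a1 encodes the main hepatic hydroxylase of retinoic acid, and its promoter window held the DR5 printed above. Its log2 ratio was 0.09, 0.31, -0.01 and -0.30 on AhR replicates 1 to 4, against 1.05, -0.16, -0.12 and 0.00 on Control replicates 1 to 4. Control replicate 1 stood apart from the other 7 arrays. The mean was 0.02 ± 0.25 in AhR and 0.19 ± 0.58 in Control (SD, n = 4 each), a difference of -0.17 (SE 0.25, 95% interval -0.72 to 0.38, limma adjusted p = 1.00, exact permutation p = 0.743). Without Control replicate 1 the difference was 0.12 (SE 0.14), so its direction also rested on 1 array. Raw Cy5 signals were low, 185 to 532.

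Cyp26b1, the second hydroxylase, had log2 ratios of 1.15, -0.16, 0.26 and 0.46 on AhR replicates 1 to 4, against 0.99, 0.01, 0.03 and 0.16 on Control replicates 1 to 4. The arrays numbered 1 were the highest of each group, and those numbered 2 the lowest. The mean was 0.43 ± 0.55 in AhR and 0.30 ± 0.47 in Control (SD, n = 4 each), a difference of 0.13 (SE 0.28, 95% interval -0.49 to 0.75, limma adjusted p = 1.00, exact permutation p = 0.686). It was -0.11 without AhR replicate 1. The probe was spotted 10 times per array, and its spots had an SD of 0.09 against 0.51 between arrays of a group.

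Rara, the retinoic acid receptor measured here, had log2 ratios of -0.05, -0.07, -0.09 and 0.21 on AhR replicates 1 to 4, against 0.35, 0.31, 0.02 and -0.04 on Control replicates 1 to 4. AhR replicates 1, 2 and 3 were below all Control arrays, while AhR replicate 4, at 0.21, lay within the range of the Control arrays. AhR replicate 1 was barely below Control replicate 4, and their spots overlapped, at -0.09 to -0.01 and -0.05 to -0.02. The difference was -0.16 (SE 0.12, 95% interval -0.42 to 0.10, limma adjusted p = 1.00, exact permutation p = 0.171), with means of 0.00 ± 0.14 in AhR and 0.16 ± 0.20 in Control (SD, n = 4 each). With 4 arrays per group the smallest two-sided exact permutation p is 0.0286.

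The row of an array on the slide was used to split the comparison, with 2 arrays of each group per row. For Aldh1a1 the difference was -1.18 (SE 0.61) in row 1 and 1.40 (SE 0.34) in row 2, each with a limma adjusted p of 1.00. For Cyp26b1 it was -0.36 (SE 0.34) and 0.62 (SE 0.28), and for Cyp26a1 -0.46 (SE 0.38) and 0.12 (SE 0.16). These 3 differences had opposite signs in the 2 rows. Row 1 set AhR replicates 2 and 4 against Control replicates 1 and 3, and row 2 AhR replicates 1 and 3 against Control replicates 2 and 4. A difference within a row therefore also compares different slide columns, and the column is the replicate number. The other 4 kept their sign: Rbp4 had -0.17 and -0.20, Lrat 0.25 and 0.05, Rdh10 -0.04 and -0.15, and Rara -0.12 and -0.21. With the row as a block the difference of Aldh1a1 was 0.11 (SE 0.58).

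**Figure D2:**
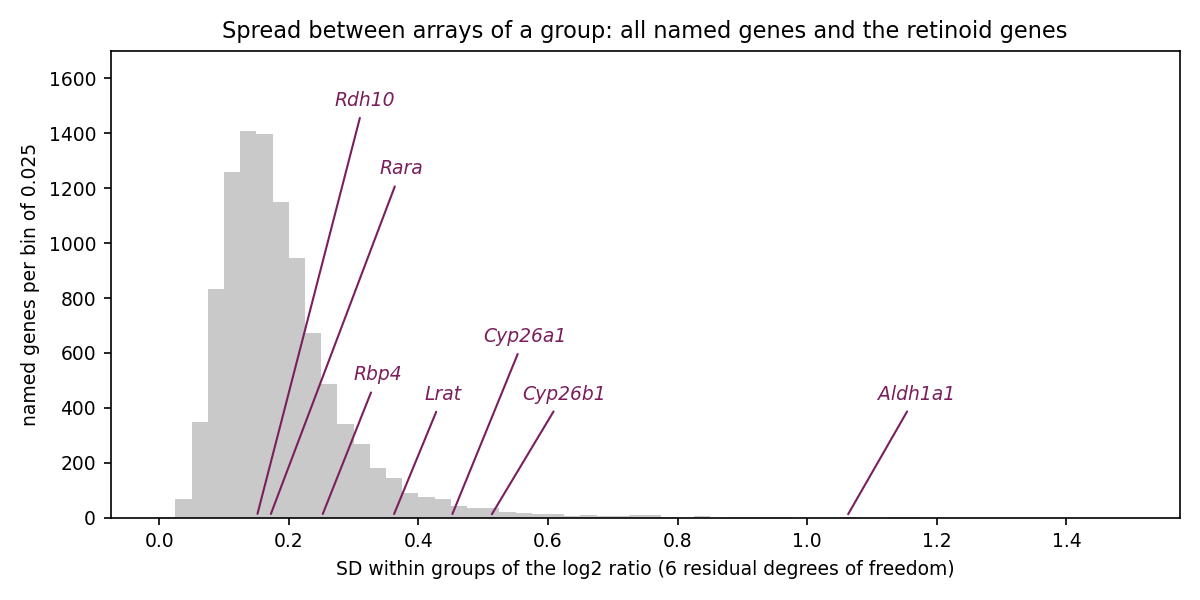
Number of named genes (vertical axis) by SD within groups of the log2 ratio (horizontal axis), with lines to the SD of each measured retinoid gene. Aldh1a1 lies at 1.06, far to the right of the median of 0.17, while Rdh10 at 0.15 and Rara at 0.17 lie near it.

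Among the 7 genes, the members of breakdown also varied more than most. Cyp26b1 ranked 173 and Cyp26a1 278 among 10003 genes by SD within groups, at 0.51 and 0.45. Lrat followed at 0.36 and rank 598, with an SD of 0.13 in AhR and of 0.49 in Control, where replicate 3 read -1.13. The dimmer Lrat probe, whose signals were near background, had an SD within groups of 0.10. Rbp4 at 0.25 had 20.2% of genes above it, Rara at 0.17 had 49.7% and Rdh10 at 0.15 had 59.3%. These ranks compare genes of unlike signal under the main processing only, and the spread of a dim gene can move with it. On AhR replicate 1 Cyp26b1 read 1.15 here and 1.66 from Agilent's processed signals.

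Aldh1a1 and Cyp26b1, an enzyme that makes retinoic acid and one that removes it, were ordered alike over the 8 arrays. Of 21 pairs among the 7 genes, this pair had the highest rank correlation (Spearman's rho 0.93, exact permutation p = 0.00223, Benjamini-Hochberg adjusted p = 0.0469). Its Pearson's r was 0.83 (exact permutation p = 0.0138, adjusted p = 0.145), which did not pass over the 21 pairs. Without AhR replicate 2 and Control replicate 2, the arrays farthest from the median of Aldh1a1, r was 0.80 over 6 arrays. It was 0.83 after removal of the group means and 0.86 after removal of slide row means, and a row of 4 arrays is too few for an r of its own. After removal of the means of the slide columns, a step chosen after seeing the data, r was 0.26. A column held 1 array of each group, so this r describes only 4 differences between same-numbered arrays and carries the group difference. These are too few to place the likeness of this pair within or between columns, and the permutation p treats the 8 arrays as exchangeable. The other pair with a Pearson's p under 0.05 was Rbp4 and Cyp26a1, with r = 0.87 (exact permutation p = 0.00769, adjusted p = 0.145) and rho = 0.67 (exact permutation p = 0.0831, adjusted p = 0.582). Its r was 0.88 after removal of the group means and 0.86 after removal of slide row means. After removal of slide column means, the step chosen after seeing the data, it was 0.98, again over only 4 differences. The largest of these were between the arrays numbered 1, -0.70 for Rbp4 and -0.96 for Cyp26a1. Without Control replicate 1 alone, and with column means kept, r was 0.68. Without AhR replicate 2 and Control replicate 1, the arrays farthest from the median of Rbp4, it was 0.19 over 6 arrays, so this relation rests largely on those arrays. Rbp4 and Rdh10 had r = 0.65 and rho = 0.71 (exact permutation p = 0.0838 and 0.0576, adjusted p = 0.586 and 0.582), and r = 0.84 without the same 2 arrays. The pair of hydroxylases Cyp26a1 and Cyp26b1 had r = 0.45 and rho = 0.19 (exact permutation p = 0.271 and 0.665, adjusted p = 0.812 and 0.882). Without Control replicate 1 alone their r was -0.08, and without that array and AhR replicate 2 it was 0.44. In all, 18 of the 21 r were above 0, and they share the arrays and the reference channel.

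**Figure D3:**
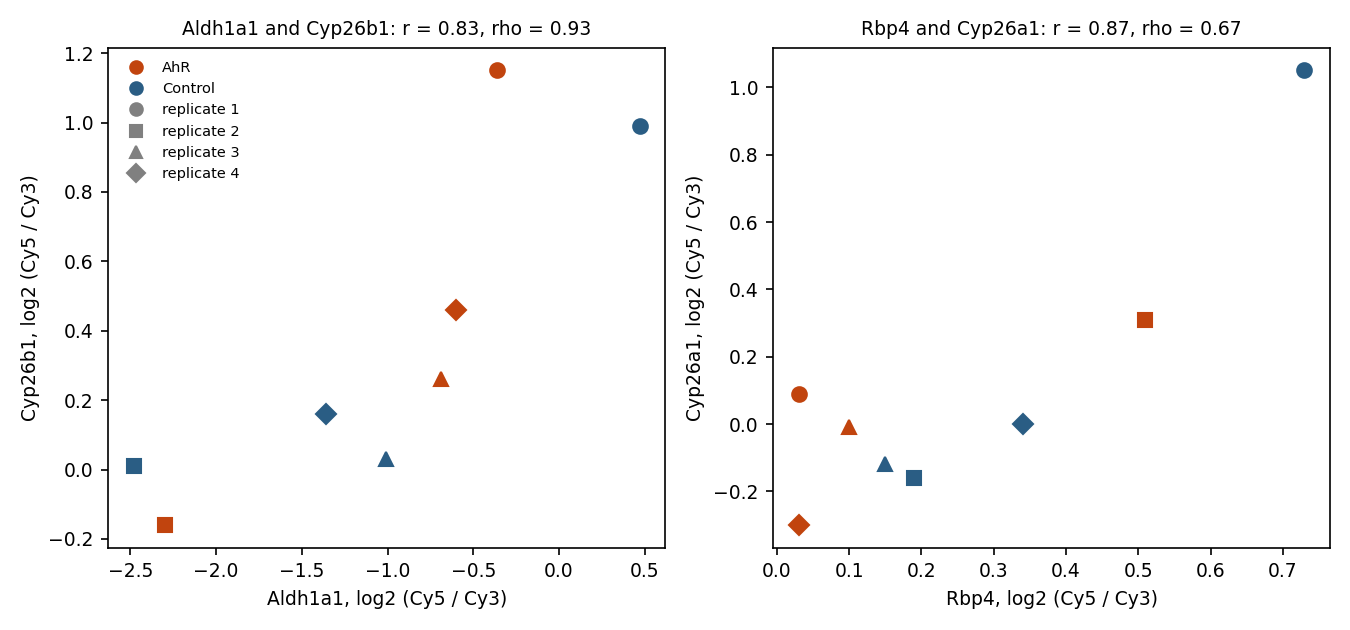
Log2 ratios of Cyp26b1 against Aldh1a1 (left) and of Cyp26a1 against Rbp4 (right), one point per array, coloured by group and shaped by replicate number. On the left the arrays numbered 2 lie lowest and those numbered 1 highest, with rho = 0.93, and on the right Control replicate 1 lies alone at 0.73 and 1.05.

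Control replicate 1 gave the highest value of Rbp4, Lrat, Aldh1a1, Cyp26a1 and Rara. On the same array the 11 Kupffer cell markers had their lowest mean, -0.89, against -0.28 to 0.41 on AhR arrays and -0.13 to 0.14 on the other Control arrays. Its 15 hepatocyte markers had a mean of 0.09, within the range of 0.09 to 0.28 on AhR arrays and 0.04 to 0.32 on the other Control arrays. The stellate markers were at -0.65 on this array, second only to Control replicate 2 at -0.72 in how low they were, and the cholangiocyte markers at 0.12 were the highest of the 8 arrays. On the arrays numbered 2, lowest for Aldh1a1 and Cyp26b1, the red cell markers had the highest mean of each group. It was -0.55 in AhR, against -1.68 to -1.10, and 0.34 in Control, against -1.03 to -0.92. The hepatocyte markers were at 0.28 and 0.04 on these arrays, and a relation to the retinoid genes was not tested.

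The 2 named genes closest to each member over the 8 arrays were found by Pearson's r. Ppp2r2b came first for both Aldh1a1 (r = 0.94) and Cyp26b1 (r = 0.95), followed by Srpx (r = 0.93) and Irx1 (r = 0.94). Cyp26a1 was closest to Zfp955a (r = 0.98) and Fbxo4 (r = 0.97), and Rbp4 to Acad9 and Ift25 (both r = 0.98). Lrat was closest to Ins2 (r = 0.97) and Slf2 (r = 0.94), Rdh10 to Zfp846 (r = 0.96) and Rad51d (r = 0.95), and Rara to Cplx2 (r = 0.99) and Shisa2 (r = 0.97). Such values are usual with 8 arrays, since the median named gene had a closest gene at r = 0.968.

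Beyond the members, 74 other genes of the retinoid pathway were listed, of which 60 were measured. None of the 60 was called in either direction, 27 had higher and 33 lower means in AhR, and the median difference was -0.01. Among all named genes 49.5% had higher means in AhR. No matched probe was found for 9 of the 74. The other 5, among them Crabp1, Dhrs9, Sdr16c5 and Aldh1a2, had Cy5 signals that were well above background on 0 arrays. The lowest limma unadjusted p among the 60 was 0.0527.

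**Figure D4:**
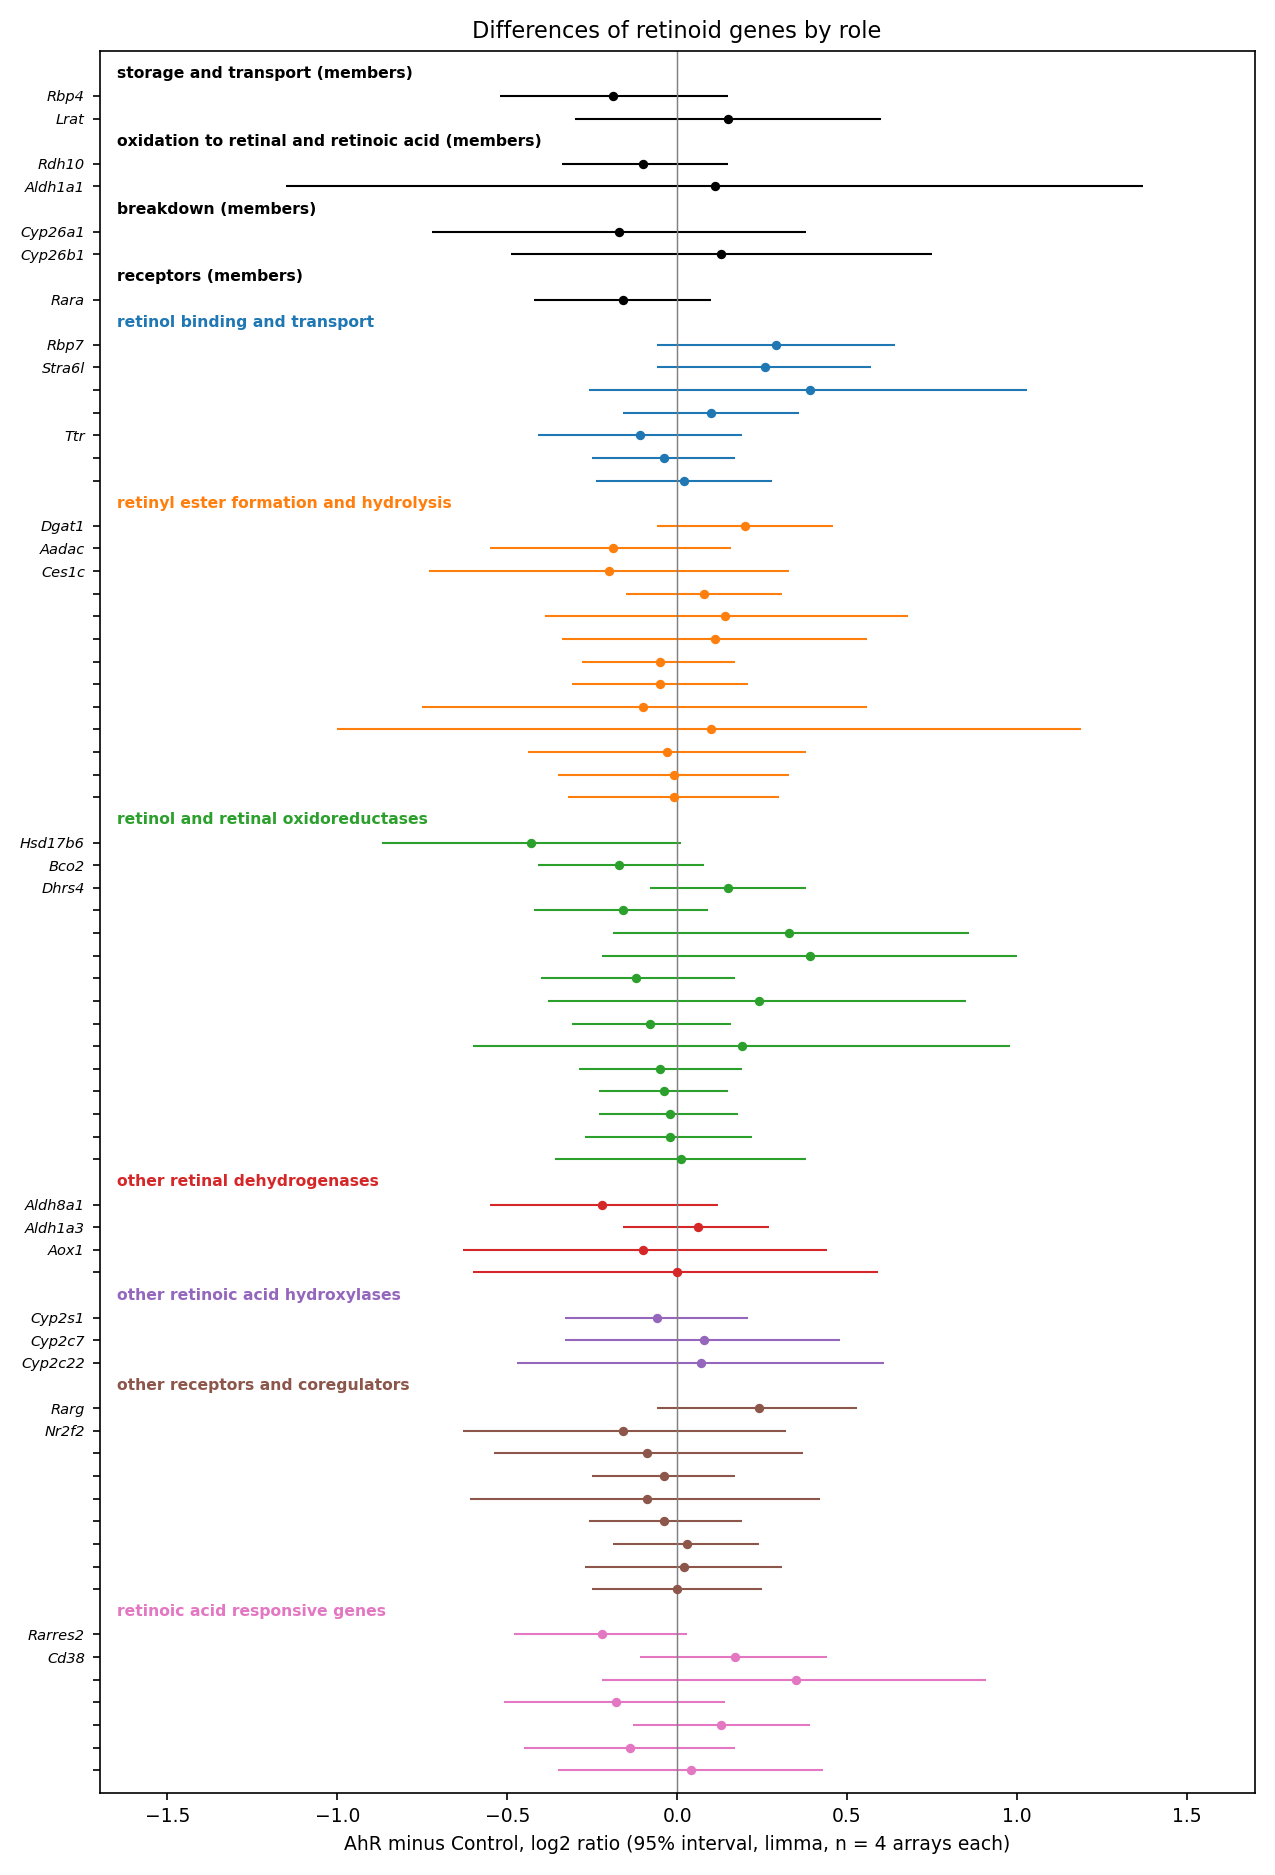
AhR minus Control difference of the log2 ratio (horizontal axis) with its 95% interval from limma for the 7 measured members, in black, and the other measured retinoid genes (vertical axis), grouped by role, a gene of several roles being drawn once and genes not named in the text left without a label. Of the 67 measured genes 2 are not shown, and of the 65 intervals drawn all include 0, and that of Aldh1a1 is the widest.

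Genes of retinol binding and transport had 5 of 8 measured genes with higher means in AhR, and the median of their differences was 0.06. Rbp7, an intracellular retinol-binding protein, differed by 0.29 (SE 0.16), from means of 0.09 ± 0.25 in AhR and -0.20 ± 0.27 in Control. Stra6l, which encodes a receptor for RBP4 known from mouse, differed by 0.26 (SE 0.14). Ttr, which encodes the partner of RBP4 in plasma, differed by -0.11 (SE 0.14). All 3 intervals include 0.

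Genes of retinyl ester formation and hydrolysis had 5 of 13 with higher means in AhR, and the median of their differences was -0.01. Dgat1, an acyltransferase that can also esterify retinol, differed by 0.20 (SE 0.12), the esterase gene Aadac by -0.19 (SE 0.16) and the carboxylesterase gene Ces1c by -0.20 (SE 0.24). Retinol and retinal oxidoreductases had 6 of 15 higher means and a median of -0.02. Hsd17b6, a dehydrogenase of steroids that also acts on retinol, had the lowest p of the pathway, with a difference of -0.43 (SE 0.20) from means of -0.21 ± 0.28 in AhR and 0.23 ± 0.39 in Control (SD, n = 4 each, exact permutation p = 0.171). Bco2, a carotenoid-cleaving enzyme, differed by -0.17 (SE 0.11) and Dhrs4, a retinal reductase, by 0.15 (SE 0.10).

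Retinal dehydrogenases and oxidases other than the members had 1 of 4 higher means and a median of -0.05, with Aldh8a1 at -0.22 (SE 0.15), Aldh1a3 at 0.06 (SE 0.10) and Aox1, an aldehyde oxidase, at -0.10 (SE 0.24). Of the other retinoic acid hydroxylases Cyp2s1 differed by -0.06 (SE 0.12), Cyp2c7 by 0.08 (SE 0.18) and Cyp2c22 by 0.07 (SE 0.24). Receptors and coregulators had 4 of 10 higher means and a median of -0.02. Rarg, the receptor related to Rara, differed by 0.24 (SE 0.13) and the orphan receptor gene Nr2f2 by -0.16 (SE 0.22). Genes known to respond to retinoic acid had 5 of 11 higher means and a median of -0.04. Rarres2, which encodes the adipokine chemerin, differed by -0.22 (SE 0.12) and Cd38 by 0.17 (SE 0.12).

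Of 3 measured genes of the AhR battery, known AhR targets, 1 had a higher and 2 had lower means in AhR, with a median of -0.25 and none called. Cyp1a2 differed by 0.26 (SE 0.25), and the others, named after their values were seen, were Nqo1 at -0.35 (SE 0.20) and Ugt1a6 at -0.25 (SE 0.23). With replicate number as a block, which the data did not bear out as a pairing, Cyp1a2 differed by 0.26 (SE 0.11) and was not called. Cyp1a1 was well above background in Cy5 on 1 AhR and 2 Control arrays. The clock genes Dbp and Bmal1 differed by 0.87 (SE 0.71) and -0.52 (SE 0.41), neither called. Without AhR replicate 4 they differed by 1.65 and -0.94. Dbp differed by 0.44 without AhR replicate 1, and Bmal1 by -0.19 without AhR replicate 2. Within rows 1 and 2 Dbp differed by 0.11 and 1.63, and Bmal1 by -0.04 and -1.01.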

How the data were processed

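The authors deposited scanner files in which each spot has an intensity, given as the median over its pixels, and a local background. Per the file headers these were made with Feature Extraction 10.7.3.1, which also wrote processed intensities with background and dye correction. A further table deposited by the authors holds log2 values whose scale is not stated. Its columns tracked loess-normalized log2 ratios made here without background subtraction (r of 0.9898 to 0.9943). Their medians were 0.00569 to 0.0165, their direction was Cy5 over Cy3, and the dye correction behind them is unknown.

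Here limma 3.58.1 in R 4.3.3 was used for normexp background correction (offset 50) and for loess within each array, in which control spots and outlier-flagged spots had weight 0. Unflagged spots of a probe were averaged. Probes with Cy5 well above background on at least 4 of 8 arrays were kept, 17857 of 30367. RefSeq accessions named 18004 probes. Groups were compared with limma, with Benjamini-Hochberg adjustment over all kept probes, and with two-sided exact permutation tests. The number of arrays limits the precision. The procedure was also run on simulated data with independent noise for each probe. Those data lack structure shared between arrays, so the run does not show what size of difference could be missed here. No array was counted as a duplicate, since even the most alike pair had an SD of 0.25 between its log2 ratios.

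Members, gene lists and tests were chosen with earlier results of these data known. In each other retinoid list the 3 genes of smallest p are named, and Ttr, Cyp1a1, Cyp1a2, Dbp and Bmal1 whatever their value. A few genes that these rules name are counted but not reported here. Same-numbered arrays had deviations from group means correlating at 0, -0.06, 0.05 and -0.37, so replicate numbers were not taken as pairs. Alternatives covered background correction, normalization, the Cy5 channel, the filter, blocks, the variance model, the probe, the authors' log2 table and each array left out.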

Additional observations from a re-analysis of the deposited data

Results flagged for a closer look

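An array was singled out where its gap to the nearest array of its group exceeded Dixon's 95% critical value for 4 values, 0.829 of the group's range. Of 62 groups of 4 arrays tested over 31 genes, 7 held such an array, and chance gives about 1 in 20. Among the members, AhR replicate 2 had a log2 ratio of 0.51 for Rbp4, with the nearest AhR array at 0.10. AhR replicate 4 had 0.21 for Rara, with the nearest at -0.05. Control replicate 1 had 1.05 for Cyp26a1, with the nearest Control array at 0, and 0.99 for Cyp26b1, with the nearest at 0.16. Among the other retinoid genes, AhR replicate 1 had 0.19 for Ttr, with the nearest at 0.44. Control replicate 3 had 0.02 for Bco2, with the nearest at -0.20, and Control replicate 1 had -0.22 for Dhrs4, with the nearest at 0.06.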

How the results depend on the processing

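No probe was called under any of the alternatives run, and the lowest limma adjusted p of any member or named gene was 0.91. Rbp4, Rdh10 and Rara kept their direction under all of them, with sizes that moved. Leaving out each array gave -0.30 (without AhR replicate 2) to -0.06 (without Control replicate 1) for Rbp4, -0.16 to -0.03 (without Control replicate 4) for Rdh10 and -0.23 to -0.10 (without Control replicate 1) for Rara. Median centring gave -0.02 for Rdh10 and -0.08 for Rara. The same ranges were -0.08 to 0.30 for Lrat, -0.35 to 0.63 for Aldh1a1, -0.29 to 0.12 for Cyp26a1 and -0.11 to 0.36 for Cyp26b1. They were -0.36 to 0.02 for Ces1c, -0.02 to 0.10 for Aldh1a3, -0.25 to 0.17 for Aox1, -0.14 to 0.03 for Cyp2s1, -0.06 to 0.20 for Cyp2c7 and -0.10 to 0.28 for Cyp2c22. Within slide row 1 the sign turned for Aldh1a1 (-1.18), Cyp26b1 (-0.36), Aldh1a3 (-0.01), Cyp2c7 (-0.25) and Rarg (-0.03). Within slide row 2 it turned for Cyp26a1 (0.12), Rbp7 (-0.06), Ces1c (0.02), Aox1 (0.16), Cyp2s1 (0.09) and Cyp2c22 (-0.06). The median difference of the binding and transport genes was -0.03 in row 1 and -0.04 in row 2, against 0.06 over both rows, and that of the other hydroxylases was -0.20 in row 1, against 0.07. Probes with an unadjusted p under 0.05 and a 1.5-fold difference numbered 37, against 173 from Agilent's processed signals, 67 with a normexp offset of 10, 97 in row 1 and 145 in row 2. Without 1 array they numbered 32 to 68, with 68 without AhR replicate 4 and 57 without Control replicate 4. The cause was not tested. With replicate number as a block, which the data did not bear out as a pairing, 0 probes were called and 41 passed the unadjusted rule. The difference of Aldh1a1 was then 0.11 (SE 0.23) and that of Cyp26b1 0.13 (SE 0.12), and the block changed no call. That of Cyp1a2 was 0.26 (SE 0.11, limma unadjusted p = 0.0406), against an SE of 0.25 without the block. That of Rbp7 was 0.29 (SE 0.11, limma unadjusted p = 0.0313), against an SE of 0.16. The SE rose with the block for Rbp4 (0.15 to 0.16), Rdh10 (0.11 to 0.13) and Rara (0.12 to 0.14). Using the dimmer Lrat probe, chosen after seeing the data, gave 0.13 (SE 0.09). Removing slide column means, also chosen after seeing the data, gave r = 0.26 for Aldh1a1 and Cyp26b1, against 0.83. For Rbp4 and Cyp26a1 it gave r = 0.98, against 0.87. Both values after removal describe only 4 differences between same-numbered arrays, too few to draw on. The lowest raw Cy5 signals of Cyp26b1, Cyp26a1 and Rdh10 were 177, 185 and 314. Their SDs of single spots were 0.09, 0.10 and 0.14. The SDs between arrays of a group, taken on means of spots, were 0.51, 0.45 and 0.15.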

Other observations

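Same-numbered arrays, which share a column of the slide, had like values of Aldh1a1 and Cyp26b1. These 2 genes were picked out after their values were seen, so the figures that follow only describe them, and over all probes the numbers did not pair the arrays. With the number as a block, the residual SD of Aldh1a1 was 0.47, against 1.06 without it, and that of Cyp26b1 was 0.15, against 0.51. The ratio of these SDs was smaller in 3.46% of 10003 genes for Aldh1a1 and in 1% for Cyp26b1, and its median over all genes was 1.06. It was 0.98 for Cyp26a1, 1.13 for Lrat, 1.22 for Rbp4, 1.25 for Rara and 1.36 for Rdh10. AhR minus Control differences of same-numbered arrays were -0.83, 0.19, 0.32 and 0.76 for Aldh1a1 and 0.16, -0.17, 0.23 and 0.30 for Cyp26b1. Whether a column shares litters, dissection or handling is not given in the labels, and its part in these values was not tested.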
